A study of Mus musculus with 3 samples.

Results

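Sox4, Sox11 and Sox12 form the SOXC group of HMG-box transcription factor genes, and the CHD7 and SOX2 peaks around these 3 genes were described in the otocysts of E10.5 mouse embryos. Peaks were taken from both peak lists when they lay within 1 kb of a gene end, inside the gene or within 50 kb of it (build mm10). The rule found 7 of the 33035 CHD7 peaks and 24 of the 155548 SOX2 peaks. The otocyst is the epithelial vesicle that gives rise to the inner ear. Cells of 34 pooled wild-type otocysts were split for CUT&Tag, in which an antibody brings the Tn5 transposase to DNA near a protein. An anti-CHD7 antibody gave the CHD7 list and an anti-SOX2 antibody the SOX2 list. A no primary antibody sample is not analysed here. Pooled otocysts hold several cell types, and a list of peaks cannot say which of them carried a peak. With 1 library per antibody there is no replicate error, and no test between groups was possible.

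SOXC proteins bind DNA through an HMG box like that of SOX2 and activate transcription through a domain at the other end of the protein. Sox4 and Sox11 are needed in many progenitor and neuronal tissues, the mouse inner ear among them, while SOX12 is known as the weaker activator. Each of the genes has a single exon, so a peak inside one of them lies in transcribed, exonic sequence. CHD7 is a chromatin remodeler mutated in CHARGE syndrome, and in adult mouse neural stem cells its loss is known to lower Sox4 and Sox11 expression. SOX2 is a SOXB factor of sensory and neural progenitors.

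The promoters are shown first because the peaks of highest total signal in each locus lay at or near them. RefSeq promoter sequences (GRCm38.p6, the build also called mm10) were matched for 3 of 3 members, each running from 250 bases before the start site to 50 bases after it. Capitals mark CCAAT, read on either strand (ATTGG where it lies on the other strand), and the octamer ATGCAAAT. The promoters lie on the minus strand at chr13:28953650-28953949 for Sox4, chr12:27342669-27342968 for Sox11 and chr2:152397997-152398296 for Sox12.
Sox4: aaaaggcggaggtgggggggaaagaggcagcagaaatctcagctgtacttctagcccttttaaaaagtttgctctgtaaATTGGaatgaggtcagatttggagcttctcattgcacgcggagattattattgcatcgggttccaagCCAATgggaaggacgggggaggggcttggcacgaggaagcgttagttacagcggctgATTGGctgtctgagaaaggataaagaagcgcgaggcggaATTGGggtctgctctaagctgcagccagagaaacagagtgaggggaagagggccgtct
Sox11: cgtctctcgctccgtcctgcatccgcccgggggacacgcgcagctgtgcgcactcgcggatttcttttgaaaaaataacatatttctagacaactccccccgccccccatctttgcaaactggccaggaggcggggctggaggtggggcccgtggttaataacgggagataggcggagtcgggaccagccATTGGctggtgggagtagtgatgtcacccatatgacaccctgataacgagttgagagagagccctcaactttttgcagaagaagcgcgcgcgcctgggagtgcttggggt
Sox12: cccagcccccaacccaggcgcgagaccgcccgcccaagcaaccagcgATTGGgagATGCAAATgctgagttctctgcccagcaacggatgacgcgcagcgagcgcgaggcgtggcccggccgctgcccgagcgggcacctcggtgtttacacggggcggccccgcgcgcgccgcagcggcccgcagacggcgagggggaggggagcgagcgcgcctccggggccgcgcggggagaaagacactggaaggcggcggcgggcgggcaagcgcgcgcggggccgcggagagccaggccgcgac

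CCAAT was found in the promoters of 3 of 3 members, against 38.2% of the 21263 promoters of protein-coding genes and 46.8% of the 3364 that lay wholly in peaks of both lists. Of the members, Sox4 and Sox11 belong to those 3364 and Sox12 does not. Sox4 had 4 copies, which began 171, 104, 47 and 8 bases before the start site in the direction of the gene, while Sox11 had 1 at 60 bases and Sox12 had 1 at 203 bases. The octamer, the sequence recognised by POU factors that can partner SOX proteins, was found once, in Sox12, at 195 bases before the start site. It occurred in 1.66% of all these promoters, and it overlaps an E-box match (CANNTG). E-boxes were found in 3 of 3 members, in 69.0% of all promoters and in 56.8% of those wholly in peaks of both lists. The GC box GGGCGG occurred 4 times in Sox12, with an overlapping pair, 2 times in Sox11 and not in Sox4. It was in 46.2% of all promoters and in 76.5% of those wholly in peaks of both lists. The SOX-type letters AACAAT and ACAAAG were in none of the 3 windows, against 9.05% and 16.8% of all promoters. TATAAA was also in none of them, against 12.6%. Of the promoters wholly in peaks of both lists, 3.89% held AACAAT, 10.8% ACAAAG and 4.28% TATAAA. All motifs were searched on both strands, and a match or its absence describes these letters in this window only.

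Base composition separated the members. The Sox4 promoter was 52.0% G and C with 12 CpG dinucleotides, the Sox11 promoter 58.7% with 21, and the Sox12 promoter 76.7% with 47. The median over all promoters of protein-coding genes was 56.3% with 13 CpG, and over those lying wholly in a CHD7 peak 63.7% with 24. Sox12 therefore stood above 96.5% of all promoters in G and C content, Sox11 above 56.7% and Sox4 above 35.2%.

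Peaks of both lists covered the promoters of Sox4 and Sox11 in full, but not that of Sox12. All 300 bases lay in a CHD7 peak and in a SOX2 peak for Sox4 and for Sox11. At Sox12 146 of the 300 bases lay in a CHD7 peak and 0 in a SOX2 peak. Over all 21263 promoters, 22.8% lay wholly in a CHD7 peak, 28.2% in a SOX2 peak and 15.8% in both. The octamer and the CCAAT match of Sox12 lay in the part that the CHD7 peak covered.

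**Figure D1:**
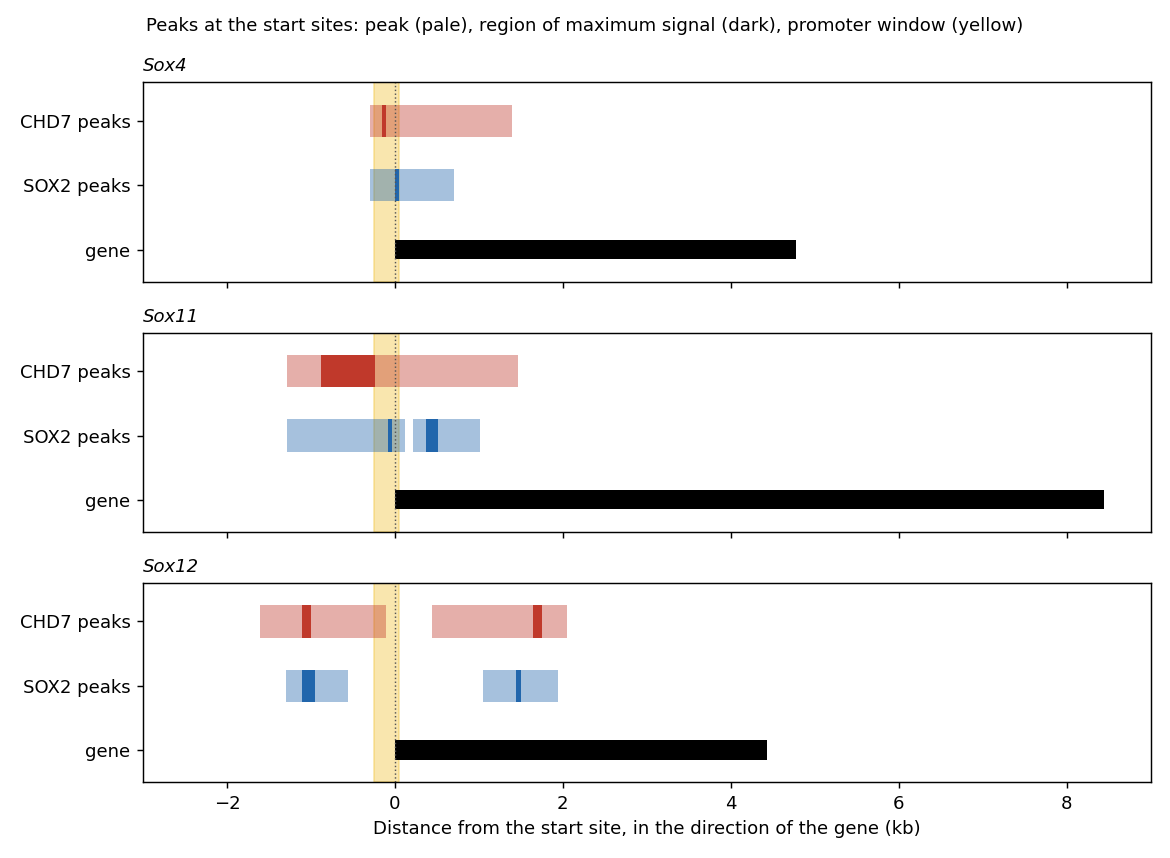
Peaks around the start sites of the 3 SOXC genes, with distance from the start site in kb in the direction of the gene. Pale bars are CHD7 (upper) and SOX2 (lower) peaks, dark parts their regions of maximum signal, the black bar the gene and the yellow band the 300-base promoter window: the band lies inside peaks of both lists at Sox4 and Sox11, and the Sox12 start site lies between peaks. A region of maximum signal can hold bases below the maximum.

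Each member had a CHD7 peak and a SOX2 peak within 1 kb of an end, and the pair shared bases. CHD7 was at an end of 3 of 3 members, against 30.8% of 21887 protein-coding genes. SOX2 was at an end of 3 of 3, against 59.7%. Both lists were at an end of 3 of 3, against 28.3%, and in 3 of 3 a CHD7 end peak shared at least 1 base with a SOX2 peak, against 27% of all genes. Of the 6742 genes with a CHD7 end peak, 6192 also had a SOX2 end peak. In 5902 a CHD7 end peak shared a base with SOX2, so the pair is the usual state where CHD7 is at an end. At the members the end was the start-site end in each case, for CHD7 as for SOX2, and neither list had a peak at the other end of a member. Over the 17492 protein-coding genes with a promoter entry, which gives the strand, CHD7 was at the start-site end of 29.2% and at the other end of 4.54%, and SOX2 at 52% and 21%. Of the genes with CHD7 at the start-site end 92% had none at the other, so the position of the member peaks is the usual one. The members number 3, and these counts describe them without a test.

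Sox4 (chromosome 13, 28948919 to 28953699, minus strand) carried a single CHD7 peak in its whole locus. It ran from 28952301 to 28954000 (1700 bases), which is 301 bases before to 1398 bases after the start site, and had a total signal of 1316.2. Total signal is the authors' coverage summed over the peak and is compared here within a list, never between lists. Of all CHD7 peaks 13.4% had at least that total signal, and 27.2% at least its maximum, 30 of the equal steps in which the deposited signal rises. The SOX2 peak at 28953001 to 28954000 lay wholly inside the CHD7 peak and ended on the same upstream border. Its total signal was 1876.6, a value reached by 12.3% of SOX2 peaks, and its maximum was 7 steps.

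The regions of maximum signal at Sox4 lay 100 bases apart. For CHD7 the maximum fell on chr13:28953801-28953850, before the start site, and for SOX2 on chr13:28953651-28953700, over the start site. Both are printed in the direction of the gene, since they lie inside the promoter window, and neither holds a complete CCAAT.
Sox4 CHD7 maximum: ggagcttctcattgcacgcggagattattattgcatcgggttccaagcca
Sox4 SOX2 maximum: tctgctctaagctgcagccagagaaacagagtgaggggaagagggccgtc

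The Sox4 start site also lies inside Gm46405, a long noncoding RNA gene on the same strand (28945177 to 28960673). Neither end of Gm46405 had a peak of either list, and the pair at the Sox4 start site was its single CHD7 peak and its single SOX2 peak. The lists carry no strand or transcript and cannot assign the pair to one of the genes.

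Sox11 (chromosome 12, 27334268 to 27342718, minus strand) had the widest CHD7 peak among the members. The peak at 27341251 to 27344000 spanned 2750 bases, against a median of 950 in the CHD7 list, where 4.69% of peaks reached 2000 bases. Its total signal of 2081.3 was reached by 5.52% of CHD7 peaks, but its maximum of 19 steps was below the list's median of 20 and was reached by 54.2%. The peak was thus strong by width. Its deposited region of maximum signal extended from 882 to 233 bases before the start site. Such a region can hold bases below the maximum and is not read as an even stretch. Of the SOX2 peaks, 2 lay inside the CHD7 peak and together covered 80.0% of its bases. The stronger, at 27342601 to 27344000, had a total signal of 2433.8 (reached by 7.01% of SOX2 peaks) and a maximum of 9 steps. The weaker, at 27341701 to 27342500, had a total signal of 762, with 98.1% of SOX2 peaks at or above it. That is next to the smallest total signal in the SOX2 list, 733.1.

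The SOX2 maximum at Sox11, chr12:27342751-27342800, lay 82 to 33 bases before the start site. Its 50 bases hold the single CCAAT match of that promoter, in capitals.
Sox11 SOX2 maximum: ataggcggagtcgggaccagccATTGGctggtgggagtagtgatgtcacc

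Sox12 (chromosome 2, 152393611 to 152398046, minus strand) had pairs of peaks on both sides of a start site that neither list covered. Before the start site lay a CHD7 peak at 152398151 to 152399650 (total signal 1352.6) with a SOX2 peak at 152398601 to 152399350 (total signal 1818.0) inside it, and their regions of maximum signal shared bases. After the start site lay a CHD7 peak at 152396001 to 152397600 (total signal 1348.1), and wholly inside it a SOX2 peak at 152396101 to 152397000. This SOX2 peak, in the exon of Sox12, had the highest total signal of the SOX2 peaks in the 3 loci, 3577.3 (reached by 3.13% of SOX2 peaks), and a maximum of 12 steps. By maximum it stood second to a flanking peak of Sox12 at 152359751 to 152360050, which had 13 steps. It ended 46 bases outside the 1 kb window around the start site and so counts as inside the gene, whereas the CHD7 peak around it counts as an end peak. The nearest end peak to that limit was the upstream SOX2 peak, 555 bases from the start site. Between the pairs 550 bases were free of CHD7 peaks and 1600 bases free of SOX2 peaks.

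At the start-site end the members' summed CHD7 signals were above the median of genes with an end peak, and their SOX2 signals lay on both sides of it. Summed CHD7 end signal was 1316.2 at Sox4, 2081.3 at Sox11 and 2700.7 at Sox12, and 6.58%, 2.25% and 1.14% of protein-coding genes had at least as much. Summed SOX2 end signal was 1876.6, 3196.2 and 1818.0 in the same order of genes, and 32.7%, 16.2% and 33.7% of genes had at least as much. The median over genes with an end peak was 797 for CHD7 and 2052.6 for SOX2. The Sox12 value for SOX2 leaves out the peak of 3577.3 that lay 46 bases outside the window. With gene ends of 2 kb, a window added after the values were seen, that peak counts and the Sox12 sum was 5395.4, with 8.11% of genes at or above it, while the sums of Sox4 and Sox11 stayed at 1876.6 and 3196.2, with 41.5% and 22.4% of genes at or above them. The place of Sox12 among the members for SOX2 thus turned on this peak, from the lowest with 1 kb ends to the highest with 2 kb ends. For CHD7 the sums were the same with both windows. These shares run over all protein-coding genes, of which more carry a SOX2 than a CHD7 end peak, and they were not compared between the lists.

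In the flanks the CHD7 peaks numbered 3, and the 19 SOX2 peaks were split unevenly over the loci. Flank counts were not set against those of other genes. Of the 7 CHD7 peaks 4 were end peaks and 3 lay in the flanks, each of these upstream of its gene. Of the 24 SOX2 peaks 4 were end peaks, 1 lay inside Sox12 and 19 lay in the flanks, 10 upstream and 9 downstream. End peaks held all of the locus CHD7 signal at Sox4, 82.2% of it at Sox11 and 73.0% at Sox12. For SOX2 they held 37.4%, 54.8% and 9.58%. The Sox12 share leaves out the peak inside the gene, which ended 46 bases outside the 1 kb window. That peak held 3577.3 of a locus sum of 18971.7.

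**Figure D2:**
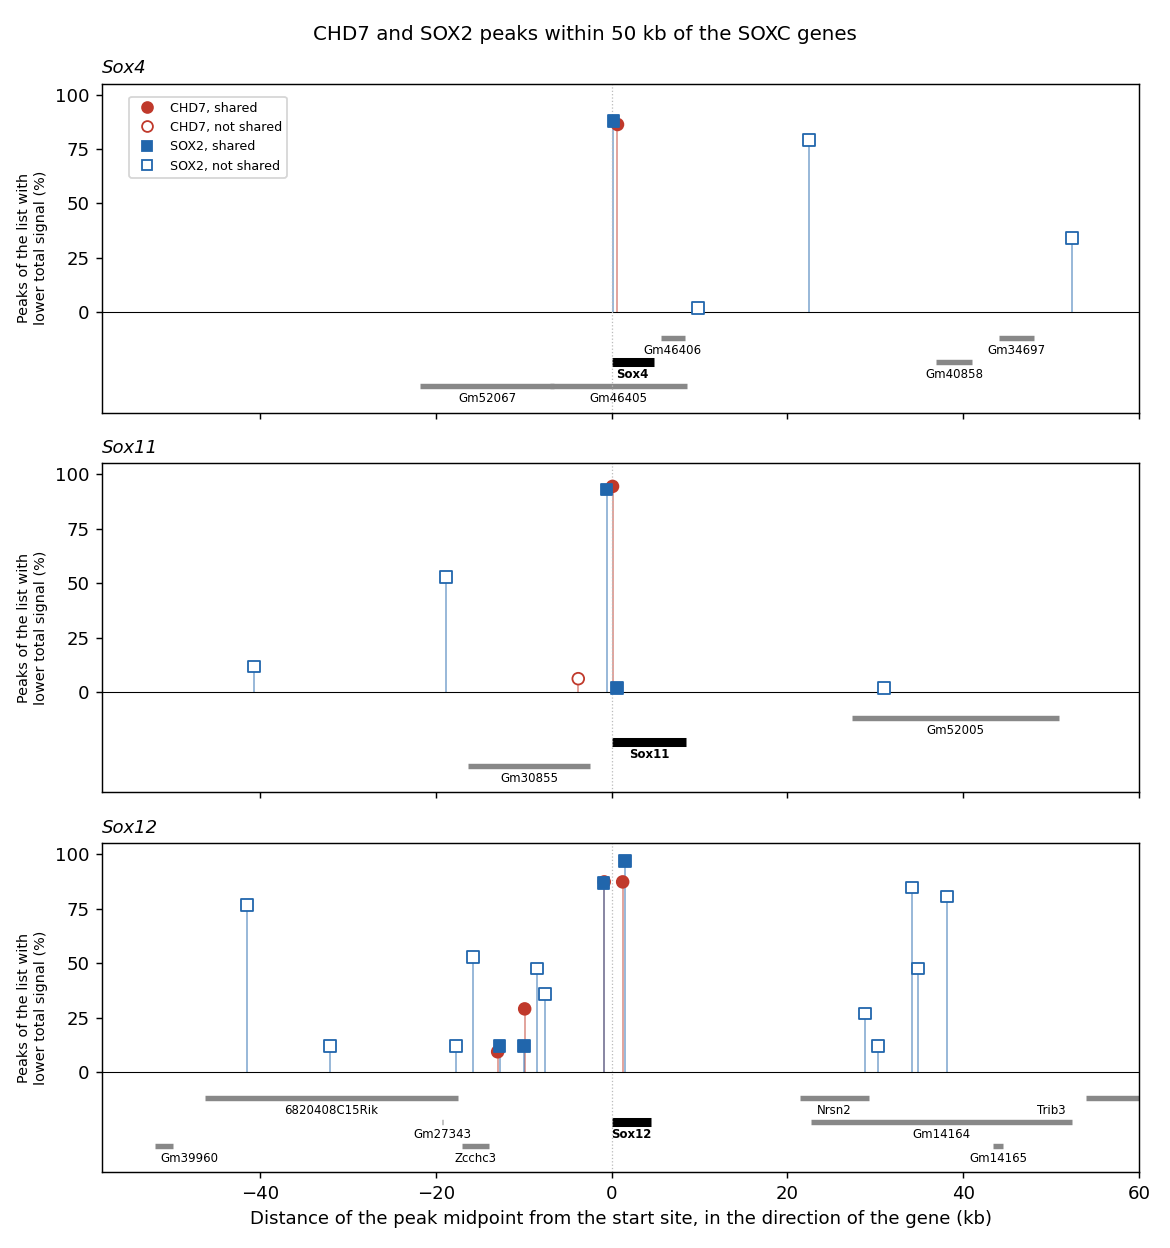
Peaks in the 3 SOXC loci, with the distance of each peak's midpoint from the start site in kb on the horizontal axis and the percent of the list with a lower total signal on the vertical axis. Filled symbols share a base with a peak of the other list, and bars below mark the genes: the highest CHD7 and SOX2 peaks of each locus stand within 2 kb of the start site, and the Sox12 locus holds most of the flanking SOX2 peaks.

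The flanks of Sox4 held no CHD7 peak and 3 SOX2 peaks, all downstream of the gene and between annotated genes. Their total signals were 762 at 28943701 to 28944050, 1466.1 at 28930801 to 28931700 and 909 at 28900951 to 28901650. The total signal of the middle one, which began 21999 bases after the start site, was reached by 21.0% of SOX2 peaks, and the first had 98.1% of the list at or above it.

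The flanks of Sox11 held 1 CHD7 peak and 3 SOX2 peaks, none of them shared. The CHD7 peak at 27346301 to 27346750 lay inside Gm30855, a long noncoding RNA gene upstream, with a total signal of 451 against a list minimum of 432.7. The SOX2 peaks had total signals of 1055.6 and 821 upstream, at 27361101 to 27362000 and 27383001 to 27383900, and 762 downstream at 27311451 to 27312050, inside the long noncoding RNA gene Gm52005. In total signal none of these 4 peaks reached the CHD7 peak or the stronger SOX2 peak at the start site.

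The flanks of Sox12 held 2 CHD7 peaks and 13 SOX2 peaks, in a stretch with several other genes. Both CHD7 peaks were weak and shared. The one at 152407501 to 152408400 had a total signal of 537. Its SOX2 partner ran from 152407701 to 152408350 and had 821. The one at 152410601 to 152411450, with 460, lay within 1 kb of an end of Zcchc3, and its SOX2 partner at 152410501 to 152411100 also had 821. Of the 13 SOX2 peaks 5 were within 1 kb of an end of another gene (Nrsn2, Zcchc3 or 6820408C15Rik), 5 lay inside Gm14164 or 6820408C15Rik, and 3 lay between genes. Those of highest total signal were at 152363551 to 152364150 (total signal 1671.4), at 152359751 to 152360050 (1524.8) and at 152439201 to 152439950 (1407.5), the first pair inside Gm14164 and the last inside 6820408C15Rik. Trib3, Gm14165, Gm27343 and Gm39960 also overlap the locus, as Gm34697, Gm40858, Gm46406 and Gm52067 do at Sox4, and none of these had a CHD7 peak at an end. Gm39960 had 2 SOX2 peaks at its ends, outside the Sox12 locus.

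Most CHD7 peaks of the loci were shared. A SOX2 peak had at least 1 base in common with 6 of 7, or 85.7% (exact 95% Clopper-Pearson interval 42.1% to 99.6%, counting error only), against 65.3% over the CHD7 list and 71.5% over the CHD7 peaks in the loci of all protein-coding genes, where a peak counts once for each locus it is in. The interval contains both of these shares, but it takes peaks as independent, which peaks of a locus need not be. Of the SOX2 peaks 7 of 24 were shared, or 29.2% (12.6% to 51.1%), against 14.7% over the SOX2 list, a share that this interval also contains. These 7 are the partners of the 6 shared CHD7 peaks, so the shares of the lists are not separate results. The 6 shared CHD7 peaks had from 500 to 2200 bases in common with SOX2 peaks, and their regions of maximum signal shared a base with that of a SOX2 peak at 2, both upstream of Sox12.

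In locus counts Sox4 and Sox11 stood low for SOX2 and Sox12 stood in the upper part for both lists. Sox4 had 1 CHD7 and 4 SOX2 peaks, Sox11 2 and 5, and Sox12 4 and 15, against medians of 2 and 10 over all protein-coding genes treated alike. At most 4 SOX2 peaks were found in 14.9% of these genes and at most 5 in 20.5%, while 27.1% had at least 15. For CHD7, 38.2% had at most 1, 59.2% at most 2 and 25.1% at least 4. Sox4 and Sox11 have no other protein-coding gene within 50 kb. Over the 2484 genes of that kind the medians were 2 CHD7 and 8 SOX2 peaks, and 29.3% had at most 4 SOX2 peaks and 36.4% at most 5. Over the 241 of them that are 4 to 9 kb long, the length range of the members, the medians were 1 and 6, with 33.6% and 42.7% at or below Sox4 and Sox11. Both of these gene sets were chosen after the values were seen.

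The SOXE genes, which act in neural crest, glia and the otic vesicle, and the SOXB genes, the group of Sox2, were set beside the SOXC genes. The 3 SOXC loci held 7 CHD7 and 24 SOX2 peaks, the 3 SOXE loci 8 and 51, and the 5 SOXB loci 16 and 46. Of the CHD7 peaks 6 were shared in SOXC loci, 5 in SOXE loci and 11 in SOXB loci. Both lists were at an end of 3 of 3 SOXC genes, 3 of 3 SOXE genes and 4 of 5 SOXB genes, Sox3 having SOX2 without CHD7. The median summed SOX2 end signal was 1876.6 in SOXC genes, 4603.6 in SOXE genes and 3196.2 in SOXB genes. With gene ends of 2 kb, which take in the peak in the Sox12 exon, it was 3196.2 in SOXC genes, 8386.2 in SOXE genes and 4075.8 in SOXB genes. For CHD7 the median with 1 kb ends was 2081.3 in SOXC genes, 1671.4 in SOXE genes and 988 in SOXB genes with an end peak. With 2 kb ends the CHD7 median rose to 1272.9 in SOXB genes and stayed the same in SOXC and SOXE genes. With 1 kb ends the groups overlapped in both measures: Sox11 equalled Sox14 at 3196.2 for SOX2, and Sox8 (2796.3) exceeded Sox12 (2700.7) for CHD7. Genes are not replicates, and these differences were not tested.

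**Figure D3:**
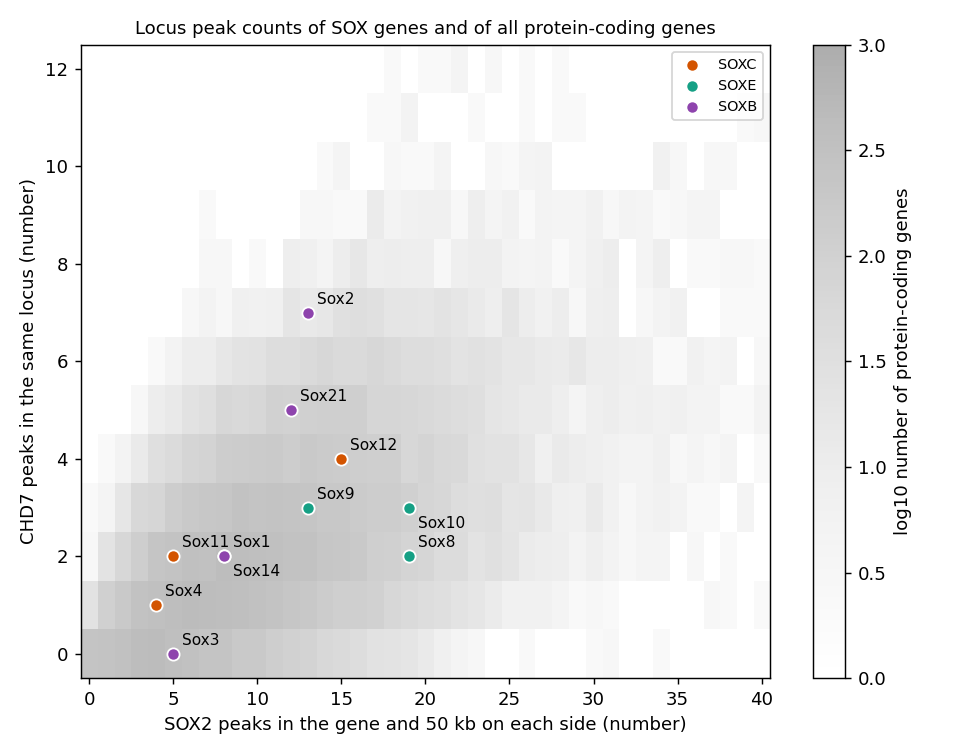
Number of CHD7 peaks (vertical) and SOX2 peaks (horizontal) in each gene extended by 50 kb on each side, with SOX genes as labelled points over all protein-coding genes in grey, darker where more genes fall (loci with over 40 SOX2 or 12 CHD7 peaks are not drawn). Sox4 (1 and 4) and Sox11 (2 and 5) lie at the left, and Sox12 (4 and 15) lies near Sox9 (3 and 13).

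A list of 12 genes described elsewhere as partners or targets of SOX4 and SOX11, or expressed with them in sensory and neuronal cells, was set beside the members. A SOX2 end peak was present at 11 of 12, against 59.7% of all protein-coding genes, and a CHD7 end peak at 6, against 30.8%. Both were present at 6, against 28.3%, and a CHD7 end peak that shared bases with SOX2 at 5, against 27%. Most genes with a CHD7 end peak had a SOX2 end peak as well, 6192 of 6742 over all protein-coding genes. The SOX2 list is the longer one, and SOX2 end peaks outnumber CHD7 end peaks over all genes too. The POU-domain partner genes Pou3f2 and Pou3f3 had summed end signals of 1849.1 and 1635 for CHD7 and of 2228.5 and 2052.6 for SOX2. Tead2, a direct target in mouse embryos, had 747 for CHD7 and 5131.4 for SOX2, and the sensory and neuronal gene Isl1 had 2195.2 and 4662.3. Neurog1 had 455 for CHD7, close to the list minimum, and 2287.2 for SOX2. At Prox1 both lists had an end peak and the peaks shared no base. The neuronal tubulin gene Tubb3 (3577.3), Neurod1 (2287.2), the hair cell factor gene Atoh1 (3401.4), Nes (3108.2) and Ccnd1 (1055.6) had SOX2 end signal and no CHD7 end peak. The neuronal migration gene Dcx had neither. The median locus of these 12 genes held 3 CHD7 and 15 SOX2 peaks, against 2 and 10 over all protein-coding genes.

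Genes nearest to each member in pattern were found by the distance over 4 percentiles among protein-coding genes (end signal and locus signal in each list, 2 libraries). Nearest to Sox4 were Tmem65 (3.16 percentile points), Smc5 (3.88) and Zpbp2 (5.85), and nearest to Sox11 were Vps35 and Orc6 (8.19 each) and 2700097O09Rik (8.49). Vps35 and Orc6 had the same end signals, 1739.8 for CHD7 and 3225.5 for SOX2, and the same locus counts. They are not taken as separate cases. With gene ends of 2 kb the 3 nearest to Sox4 and the 3 nearest to Sox11 were the same genes. The genes nearest to Sox12 changed with the window. With 1 kb ends they were Pou3f3 at a distance of 6.7, Pou3f2 at 7.9 and Gng2 at 8.51, and with 2 kb ends Setd5 at 1.32, Gm52523 at 3.8 and Nlgn2 at 4.07. Pou3f3, Pou3f2 and Gng2 then lay at 30.7, 8.74 and 30.3.

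Beyond 50 kb the members differed in their surroundings, a description added after the locus values were seen. Sox4 lies in an interval of 1.04 Mb between the protein-coding genes Prl5a1 and Cdkal1, and the interval held 18 CHD7 and 51 SOX2 peaks, or 17.3 and 49.0 per Mb. Sox11 lies in 1.96 Mb between Cmpk2 and Dcdc2c, with 12 CHD7 and 72 SOX2 peaks, or 6.13 and 36.8 per Mb. Over chromosomes 1 to 19, X and Y there were 12.1 CHD7 and 56.9 SOX2 peaks per Mb. Sox12 has neighbouring genes close on both sides, with 4 CHD7 and 6 SOX2 peaks in the 0.0353 Mb between Nrsn2 and Zcchc3.

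By total signal the strongest peaks of both lists in the Sox4 interval were not at the gene. They formed a shared pair 118 kb upstream of the start site, a CHD7 peak at 29070251 to 29072800 (total signal 4435.9, reached by 1.2% of CHD7 peaks) and a SOX2 peak at 29070751 to 29072250 (3958.6, reached by 2.53% of SOX2 peaks). By maximum signal other peaks stood higher, neither of them shared: a CHD7 peak at 28872451 to 28873050 had 58 steps against 53 in the pair, and a SOX2 peak at 29045701 to 29045950 had 38 steps against 12. The nearer end of Cdkal1 lies 238 kb from Sox4 on that side, and the lists do not say which gene the pair belongs to. In the Sox11 interval the CHD7 peak at the start site was the strongest CHD7 peak by total signal, and the next had a total signal of 1070.3 at 809 kb downstream. The nearest CHD7 peak downstream of Sox11 lay 526 kb from the gene. By maximum, a CHD7 peak at 26808201 to 26808550 had 51 steps, against 19 at the start site. The SOX2 peak of highest total signal in that interval was 203 kb downstream (3489.4, maximum 15 steps), without CHD7, and a SOX2 peak at 27210551 to 27211050 had the highest maximum, 17 steps.

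**Figure D4:**
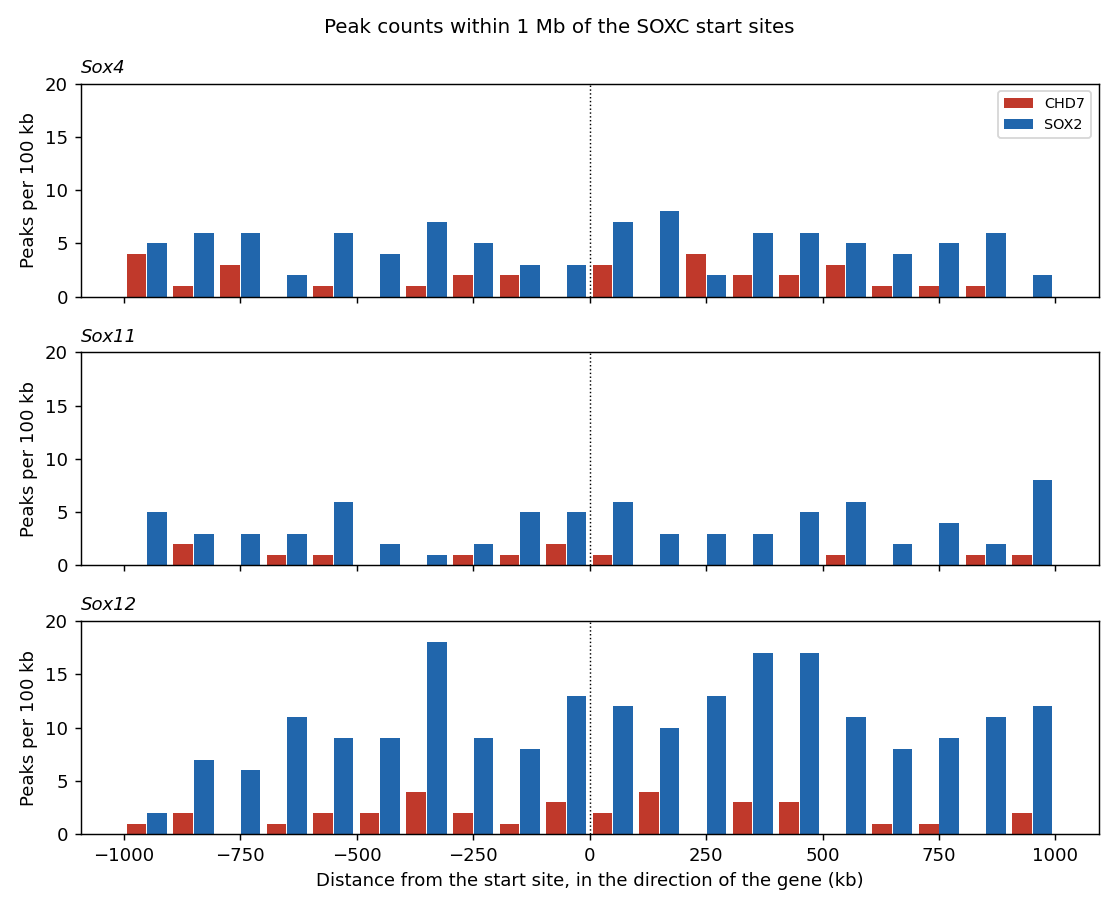
Number of CHD7 and SOX2 peaks per 100 kb within 1 Mb of each SOXC start site, with distance in kb in the direction of the gene. Bins around Sox4 hold at most 4 CHD7 and 8 SOX2 peaks, those around Sox11 at most 2 and 8, and those around Sox12 up to 4 and 18.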

How the data were processed

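CUT&Tag was run on pooled E10.5 otocysts, 1 library per antibody. The submitters' processing notes name Bowtie2, deepTools, SEACR and mm10. Versions, calling settings, duplicate handling and use of the control were not given in the sources used here. For each peak the authors deposited its coverage signal, summed and at its maximum, with 1 list per library. How they scaled it is unknown here, so signal was compared within a list. Maxima rose in steps of 0.0911 (CHD7) and 0.586 (SOX2), each maximum being whole within 0.02 of a step, and ranks used totals in whole steps. Read depth is unknown.

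Peaks were assigned to the first class that applied: within 1 kb of a gene end, inside, flank. Shared means at least 1 base in common. Coordinates count from 1. Genes (21887 protein-coding) and promoter sequences came from RefSeq tables of GRCm38.p6; 17492 of these genes had a promoter entry, with 21263 promoters. No genome was used, so motifs were searched in promoters and not in peaks.

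Members, gene lists and windows were chosen with earlier results of these data known. Genes named were the members, all genes overlapping their loci, the SOXE, SOXB and partner lists, and the 3 nearest in pattern; peaks named were end and inside peaks, the 3 strongest per flank and shared pairs. The protein comparison planned was not run. The counting was tested on simulated peaks. Alternatives were other end windows, flanks, sharing rules and stricter peak sets. Software was Python 3.11.15 with scipy 1.17.1, pandas 2.3.3, matplotlib 3.10.9 and numpy 2.4.6.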

Additional observations from a re-analysis of the deposited data

How the results depend on the processing

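The CHD7 end peaks were found at 3 of 3 members under each alternative run: gene ends of 500 bases or 2 kb, the start site of the promoter table (added after seeing the data), the stronger 50% of peaks and the 10000 strongest. SOX2 end peaks, and end peaks of both lists, were at 2 members with ends of 500 bases, where Sox12 dropped out, and at 0 with the 10000 strongest peaks, which the strongest SOX2 end peak of the members missed at rank 10714. Over all protein-coding genes 13.3% kept a CHD7 end peak and 16.9% a SOX2 end peak in that set, which is a smaller part of the longer SOX2 list, and the SOX2 peak in the Sox12 exon, at rank 4769, stayed in it outside the 1 kb window. With the stronger 50% of each list 3 of 3 members kept end peaks of both. In that set 19.2% of all protein-coding genes kept a CHD7 end peak and 47.8% a SOX2 end peak. Shares over all genes for ends of 500 bases and 2 kb are not given here. Summed end signal with 2 kb ends differed from that with 1 kb ends for SOX2 at Sox12 (5395.4 against 1818.0) and for no other of the 6 sums. The 7 CHD7 peaks of the loci became 4 with the stronger 50% and 4 with the 10000 strongest, and 11 with 100 kb on each side. The 24 SOX2 peaks became 11, 1 and 49 under the same settings, and 16 with 25 kb. Shared CHD7 peaks, 6 of 7, became 4 of 4 with the stronger 50% and 1 of 4 with the 10000 strongest. In the latter set 1 SOX2 peak was left in the loci. The shared peaks numbered 2 of 7 when regions of maximum signal had to share a base. With at least 50% of the CHD7 peak covered there were 6. Stricter sets hold fewer peaks and wider loci more sequence by construction. The number of members with each motif was the same in the 250 bases before the start site. With 1 library per antibody, no library could be left out.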

Other observations

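A start site left bare between peaks, as at Sox12, was uncommon among the promoters of protein-coding genes. CHD7 peaks lay within 1 kb on both sides of an uncovered start site at 37 of 21263 promoters (0.174%). The Sox12 SOX2 peaks fall outside the same definition, since the downstream one begins 1046 bases after the start site; 357 promoters (1.68%) had SOX2 peaks placed so. A CHD7 peak covered the start site itself at 25.9% of promoters and a SOX2 peak at 38.8%. The definition was made after the Sox12 peaks were seen. The free stretch of Sox12 coincides with a promoter whose G and C content stood above 96.5% of the others, and the part of base composition in this was not tested.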
